A study of Mus musculus with 58 samples.

Results

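The hippocampus arrays with high choroid plexus content are 8 of the 30 hippocampus arrays of a 58-array study of mouse brain. They were chosen by ranking the 30 arrays by Ttr, the transcript of the thyroxine carrier transthyretin, and taking the 8 highest. The 15 lowest served for comparison, and 7 arrays lay between. The lowest array inside the high group, mouse 5, had a Ttr value of 13.10 (log2 scale) and the next array down, mouse 39, had 12.15. At the other edge mouse 12, at 10.68, was inside the low group and mouse 42, at 10.80, was outside it. Because Ttr in these arrays made the groups, every difference between them is given as a description with its standard error (SE) and without a test.

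RNA was measured in the prefrontal cortex (labelled frontal cortex) and the hippocampus of 30 mice of the C57BL/6J background strain, all 8 months old. The transgenic mice (TG) are of the APP/PS1 model of Alzheimer's disease pathology, a line that deposits amyloid in the brain, and the others are wild type (WT). The promoter of the transgenes is not given in the labels. The male mice carry the numbers 38 to 53 and the female mice the numbers 1 to 14, so that sex and cohort cannot be told apart. The hippocampus groups hold 8 male WT, 8 male TG, 7 female WT and 7 female TG arrays, 1 from each mouse, and 28 of the mice also gave a frontal cortex array. No drug treatment is given in the labels. The 8 high arrays came from 5 male TG mice (40, 44, 46, 50 and 53), 1 male WT mouse (52), 1 female TG mouse (7) and 1 female WT mouse (5). The 15 low arrays came from 7 TG and 8 WT mice, and the 7 arrays between from 2 TG and 5 WT mice.

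The choroid plexus is a sheet of secretory epithelium around leaky capillaries that hangs into the brain ventricles and makes cerebrospinal fluid. Its epithelial cells pump ions and water, carry folate, thyroid hormone and retinol into the fluid, and close the gap between blood and fluid with tight junctions. The plexus of the lateral ventricle is attached along the fimbria and so lies against the hippocampus, and a dissected hippocampus can carry a variable amount of it. The ventricle wall beside it is lined by ependymal cells, which bear motile cilia.

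The values were log2 expression values from 2.28 to 13.58, and the array medians were 4.79 to 4.84 in the high group, 4.76 to 4.79 between and 4.76 to 4.85 in the low group. In dissected tissue, fewer cells of a type and less RNA per cell cannot be told apart. For dim genes, close to the bottom of the scale, differences come out too small, and Ttr in the high arrays lay at the very top of it. A pair of hippocampus arrays stood apart before any comparison. In the array labelled TG of mouse 7, which is in the high group, Thy1, whose values otherwise kept TG and WT arrays apart, was 10.92, whereas the remaining TG arrays had 11.90 to 12.38 and the WT arrays 10.61 to 11.02. The plaque microglia gene Cst7 was 3.21 in that array, whereas the remaining TG arrays had 5.67 to 10.21 and the WT arrays 2.89 to 3.55. In mouse 4, which is in the low group, the dentate granule cell gene Prox1 was 3.86, against 4.80 to 6.22 in the others. Both are kept below under their labels, with the values without them where they matter.

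Kl and Folr1, given with Ttr as markers of the choroid plexus, were not used for the ranking and separated the groups completely. Ttr ran from 6.58 to 10.68 in the low arrays (median 8.67), from 10.80 to 12.15 between (median 11.27) and from 13.10 to 13.58 in the high arrays (median 13.48). Folr1, the folate receptor that carries folate across the choroid epithelium, ran from 3.06 to 3.94 in the low arrays, from 3.40 to 4.35 between and from 6.87 to 8.98 in the high arrays (medians 3.37, 3.81 and 8.62). Kl, the co-receptor klotho for an endocrine fibroblast growth factor, ran from 3.44 to 5.22, from 4.60 to 5.54 and from 7.12 to 8.54 in the same order (medians 4.57, 5.04 and 8.10). Kl and Folr1 overlapped between the low and middle arrays. By Folr1 and Kl, each of the 8 arrays stood above each of the other 22.

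**Figure D1:**
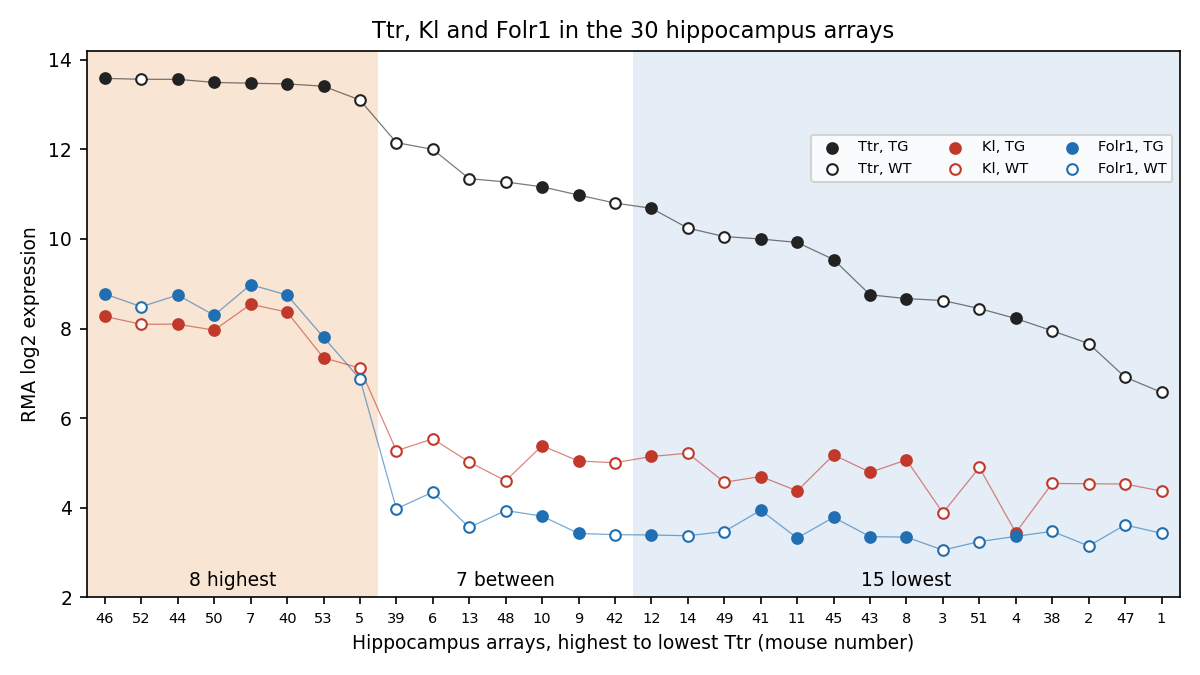
The 30 hippocampus arrays in order of Ttr, from highest to lowest, with the log2 expression of Ttr (black), Kl (red) and Folr1 (blue). Filled points are TG and open points WT mice. Folr1 was 6.87 or more in the 8 highest arrays and 4.35 or less in the other 22.

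Over all 17216 genes, 47 were higher in the high than in the low arrays by at least 1 log2 unit with no overlap between the groups, which is 0.273% of the genes, and 0 were lower by that much. The differences are adjusted for genotype and cohort. Since the ranking used this contrast, nothing is read from that share. The median difference of all genes was -0.01, with quartiles of -0.07 and 0.04, and 42.7% of the genes had a positive difference. Of the 47, 20 differed by at least 4-fold, 11 by at least 8-fold and 5 by at least 16-fold. Lists of known choroid plexus genes held 25 of them, and 20 were in none of the 22 lists used. Without the arrays of mice 4 and 7, 45 genes were counted, 44 of them among the 47.

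Promoter windows from RefSeq (build GRCm38.p6, from 250 bases before to 50 after an annotated start) were found for 40 of the 47 genes, 51 windows in all. The windows of 3 genes are shown because they are a leading ion channel (Kcnj13), a given marker that the ranking did not use (Kl) and the transcription factor of the set (Otx2). They are written 5′ to 3′ along the gene's own strand, with capitals for TAATCC, the core bound by OTX-class homeodomain proteins, on either strand (GGATTA is its reverse complement).
Kcnj13, chr1:87394680-87394979, minus strand: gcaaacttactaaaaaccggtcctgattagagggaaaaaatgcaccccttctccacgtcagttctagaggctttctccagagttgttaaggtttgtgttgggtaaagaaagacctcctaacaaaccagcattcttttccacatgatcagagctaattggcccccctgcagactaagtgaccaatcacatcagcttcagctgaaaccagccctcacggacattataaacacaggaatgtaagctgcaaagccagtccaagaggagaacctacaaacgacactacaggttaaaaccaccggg
Kl, chr5:150952357-150952656, plus strand: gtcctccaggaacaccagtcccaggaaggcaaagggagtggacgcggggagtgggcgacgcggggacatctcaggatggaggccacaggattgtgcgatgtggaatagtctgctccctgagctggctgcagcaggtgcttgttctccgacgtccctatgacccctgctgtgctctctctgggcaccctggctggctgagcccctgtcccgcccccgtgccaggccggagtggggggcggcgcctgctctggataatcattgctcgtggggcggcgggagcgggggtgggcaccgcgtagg
Otx2, chr14:48665060-48665359, minus strand, 1 of its 4 windows: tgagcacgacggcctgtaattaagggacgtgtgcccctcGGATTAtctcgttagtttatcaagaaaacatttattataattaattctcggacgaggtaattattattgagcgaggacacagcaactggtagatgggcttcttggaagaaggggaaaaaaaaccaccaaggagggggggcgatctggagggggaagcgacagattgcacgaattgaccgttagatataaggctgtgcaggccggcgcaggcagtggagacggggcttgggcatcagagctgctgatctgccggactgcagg
The Kcnj13 and Kl windows hold no TAATCC. The Otx2 window holds 1, which starts 211 bases before the annotated start. TAATCC occurred in 5 of the 51 windows (9.80%), those of Otx2, Abca4, Car14, Steap2 and Cox6b2, and in 6.06% of the 17219 windows of all measured genes. The core GTTGCC, known from RFX factors, occurred in 19.6% of the 51 and 12.7% of all windows, the forkhead core GTAAACA in 0 of the 51 and 2.81% of all, and TATAAA in 15.7% and 9.59%. Both strands were read for each, and no motif contains another, though neighbours may share letters at their ends. A match is a run of letters and not a site, and a window without it says nothing of the factor.

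Among secreted and carrier proteins, the high arrays carried more of the genes that load the cerebrospinal fluid. Of 17 measured genes of that list, 7 were among the 47, where 0.273% of all genes were. The 7 include Ttr, whose values made the ranking. The median difference of the list, Ttr included, was 1.67, against -0.01 for all genes. The list was chosen with earlier results of these data known, so its count is a description. Ecrg4, the precursor of a secreted peptide of the choroid epithelium, ran from 3.28 to 5.71 in the low arrays (median 3.96) and from 7.82 to 9.63 in the high arrays (median 9.14), a difference of 4.74 ± 0.24 (SE). The arrays of the groups stood more than 2 log2 units apart.

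Folr1 differed by 4.73 ± 0.17, Ttr by 4.40 ± 0.41 and Kl by 3.24 ± 0.21. Ttr is the value that was ranked, and its high arrays lay at the top of the scale. The low arrays of Folr1 lay near the bottom of the scale, so no fold is given for either gene. Both are in the counts by fold above, which are a description only. Sostdc1, a secreted antagonist of BMP and Wnt signals, ran from 3.35 to 4.38 in the low and from 6.53 to 8.26 in the high arrays (medians 4.02 and 7.73; difference 3.49 ± 0.19). F5, coagulation factor V, ran from 2.98 to 3.54 in the low and from 5.05 to 7.48 in the high arrays (medians 3.21 and 7.12; difference 3.33 ± 0.20). Rdh5, a retinol dehydrogenase best known from the retinal pigment epithelium, ran from 3.50 to 4.18 in the low and from 5.73 to 7.71 in the high arrays (medians 3.78 and 7.24; difference 3.13 ± 0.16). None of these genes overlapped between the groups. Igfbp2 and Igf2, a binding protein of insulin-like growth factors and such a growth factor, differed by 1.89 ± 0.17 and 1.67 ± 0.17, but the highest low array (8.08 and 6.28) passed the lowest high array (7.97 and 6.18). The abundant carriers Trf (transferrin) and Clu (clusterin), which other brain cells also make, differed by 0.37 ± 0.14 and 0.07 ± 0.07.

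The ion and water transport list had 11 of its 19 measured genes among the 47, where 0.273% of all genes were. Its median difference was 1.33. Kcnj13, an inwardly rectifying potassium channel of the apical membrane, had the largest difference of all genes. It ran from 3.19 to 4.34 in the low arrays (median 3.53), from 3.90 to 5.07 between (median 4.48) and from 7.26 to 9.47 in the high arrays (median 8.93), a difference of 4.99 ± 0.19. The low and the middle arrays overlapped, and both lay below every high array. Kcne2, a potassium channel subunit, ran from 2.86 to 3.27 in the low and from 6.30 to 8.09 in the high arrays (medians 2.97 and 7.55; difference 4.23 ± 0.17). Clic6, of the chloride intracellular channel family, ran from 3.31 to 5.02 and from 6.32 to 7.82 (medians 3.57 and 7.47; difference 3.53 ± 0.18). The water channel Aqp1 ran from 3.04 to 3.59 and from 4.93 to 6.95 (medians 3.21 and 6.29; difference 2.77 ± 0.18). All of these groups were apart.

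Slc4a5, a sodium bicarbonate cotransporter, ran from 2.77 to 3.19 in the low and from 4.41 to 6.44 in the high arrays (difference 2.48 ± 0.16), and the anion exchanger Slc4a2 from 4.66 to 5.62 and from 5.93 to 7.12 (difference 1.69 ± 0.13). The carbonic anhydrases Car12 and Car14 differed by 1.45 ± 0.23 and 1.33 ± 0.11. Car12, from 3.43 to 5.86 in the low and from 6.04 to 7.33 in the high arrays, had a lower median in the middle arrays (5.14) than in the low arrays (5.46). The STEAP family members Steap1 and Steap2 differed by 2.61 ± 0.20 and 1.27 ± 0.11 and the copper importer Slc31a1 by 1.33 ± 0.11. The sulfate transporter Slc13a4 had a difference of 2.32 ± 0.23, but its highest low array (6.61) passed the lowest high array (6.09). The chloride cotransporter Slc12a2 differed by 0.68 ± 0.11 and the sodium pump subunit Atp1b1, which neurons express strongly, by -0.01 ± 0.05, and neither is among the 47. Nor are the zinc transporter Slc39a4 (0.63 ± 0.07, without overlap) and Slc26a11 (0.03 ± 0.07, with overlap).

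**Figure D2:**
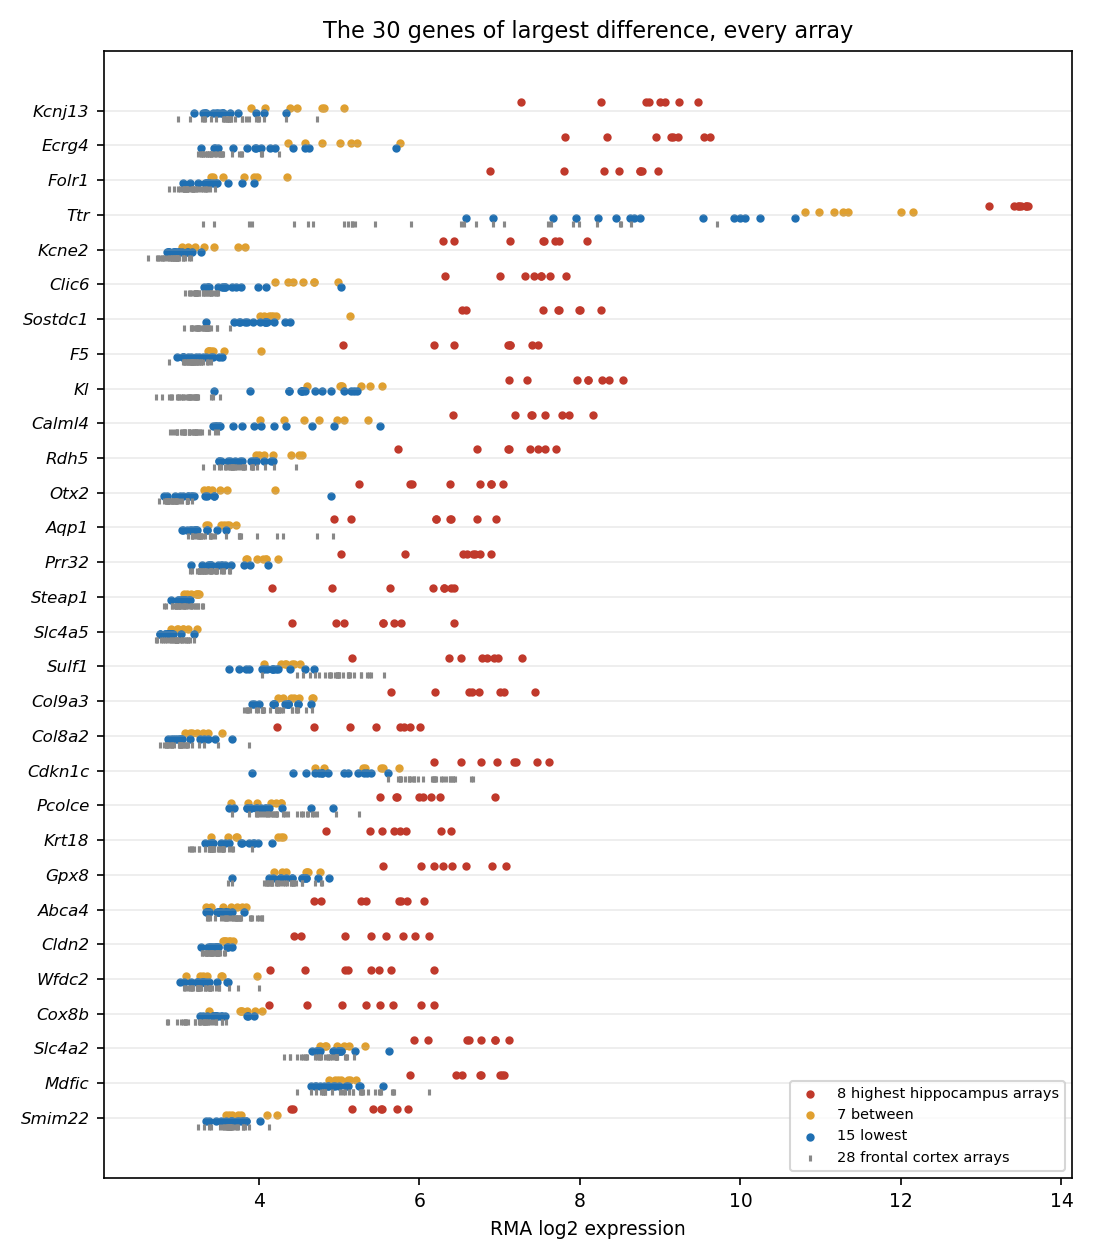
Log2 expression of the 30 genes of largest difference in each of the 8 highest (red), 7 middle (orange) and 15 lowest (blue) hippocampus arrays and in the 28 frontal cortex arrays (grey ticks). Every red point lies above every blue point of its gene, and Kcnj13 leads with a difference of 4.99.

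Junction and cytoskeleton genes of the epithelium had 6 of 14 measured members among the 47, where 0.273% of all genes were. Their median difference was 1.17, and all 14 differences were positive. Calml4, a calmodulin-like protein, ran from 3.42 to 5.51 in the low and from 6.42 to 8.16 in the high arrays (medians 3.79 and 7.48; difference 3.24 ± 0.22). Col9a3, a chain of a fibril-associated collagen, ran from 3.92 to 4.65 and from 5.64 to 7.44 (difference 2.30 ± 0.15). Krt18, a keratin of simple epithelia, ran from 3.32 to 4.17 and from 4.84 to 6.40 (difference 1.91 ± 0.14). Each of the 3 genes was apart between the groups.

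Cldn2, the claudin that forms cation pores in leaky tight junctions, ran from 3.27 to 3.66 in the low and from 4.44 to 6.12 in the high arrays (difference 1.81 ± 0.16), and Cldn1, a sealing claudin, from 3.29 to 3.82 and from 3.76 to 5.16 (overlapping at the edge). Col8a1, a short-chain collagen, and Tmem72, a membrane protein, differed by 1.48 ± 0.15 and 1.33 ± 0.17 without overlap. The epithelial adhesion genes Cdh1 and Epcam differed by 0.03 ± 0.11 and 0.07 ± 0.06, with low medians of 3.11 and 3.41 near the bottom of the scale.

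Hormone and growth factor receptors stood out less. The median difference of the 13 measured genes was 0.17. None was among the 47, which says little of so short a list, as only 0.273% of all genes were. Ltc4s, which makes leukotriene and is no receptor, differed by 0.88 ± 0.12 and the serotonin receptor Htr2c by 0.78 ± 0.14, both with overlap. Htr2c is also expressed by hippocampal neurons, and its low median was 5.51. Ace, the angiotensin-converting enzyme, and the leptin receptor Lepr differed by 0.60 ± 0.08 and 0.31 ± 0.04 without overlap. The endocytic receptor Lrp2 differed by 0.09 ± 0.04 from a low median of 3.10.

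Of 10 measured patterning transcription factors, Otx2 alone was among the 47, where 0.273% of all genes were. The median difference of the list was 0.24. Otx2, a homeobox factor needed to form and keep the choroid plexus, ran from 2.82 to 4.89 in the low arrays (median 3.16), from 3.31 to 4.21 between and from 5.25 to 7.05 in the high arrays (median 6.57), a difference of 2.99 ± 0.22. Msx1, a homeobox factor of the dorsal midline, differed by 0.92 ± 0.07 without overlap. Zic1, a zinc finger factor, and Foxj1, the master factor of motile cilia, differed by 0.82 ± 0.34 and 0.60 ± 0.10 with overlap. Lmx1a, which marks the cortical hem in the embryo, differed by -0.08 ± 0.06.

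The 20 genes outside every list included matrix, enzyme and transport genes. Sulf1, which trims sulfate from heparan sulfate, ran from 3.62 to 4.69 in the low and from 5.16 to 7.27 in the high arrays (difference 2.31 ± 0.16). Col8a2, a short-chain collagen, differed by 2.17 ± 0.18, and Pcolce and Pcolce2, enhancers of procollagen processing, by 1.92 ± 0.14 and 1.42 ± 0.15. Cdkn1c, an imprinted inhibitor of the cell cycle, differed by 2.01 ± 0.16 and Abca4, a retinoid flippase best known from photoreceptors, by 1.85 ± 0.14. These 6 genes were all apart between the groups.

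Prr32 differed by 2.72 ± 0.17, the peroxidase family member Gpx8 by 1.91 ± 0.15 and Wfdc2, a secreted protein with whey acidic protein domains, by 1.80 ± 0.17. Mdfic differed by 1.63 ± 0.11. Smim22, a small membrane protein, ran from 3.34 to 4.01 in the low and from 4.40 to 5.85 in the high arrays. The remaining 9 genes outside the lists differed by 1.08 to 1.47: the defensin Defb11, the cation channel Trpm3, the kinase scaffold Cab39l, the protease inhibitors Spint2 and Serpinb1b, the lactate transporter Slc16a8, the sugar transporter Slc2a12, the monoamine transporter Slc29a4 and Gm19935. Cox8b and Cox6b2, tissue-restricted subunits of cytochrome c oxidase, differed by 1.72 ± 0.18 and 1.18 ± 0.11, while the other 12 measured respiratory chain genes differed by -0.06 to 0.08.

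Cells that neighbour the epithelium were read from lists of their markers. All 19 measured ependymal and motile cilium genes had positive differences, with a median of 0.56. None was among the 47, where 0.273% of all genes were. The largest were Mia (1.29 ± 0.16), Dynlrb2 (1.24 ± 0.24), Cfap126 (1.23 ± 0.19), Rsph1 (1.10 ± 0.18) and the adenylate kinase Ak7, each with overlap. The mean over the list ran from 4.52 to 4.96 in the high arrays and from 3.56 to 4.66 in the low arrays, so the ependymal signal of some low arrays reached that of some high arrays. For the secreted and carrier list the same means were 7.26 to 8.21 and 5.55 to 6.18, which did not overlap.

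Stroma and vessels differed little. The 15 genes of meninges and fibroblasts had a median difference of 0.11, and none was counted, where 0.273% of all genes were. Ogn and Lum, small proteoglycans, differed by 0.83 ± 0.22 and 0.76 ± 0.19, and the collagen gene Col1a1 by -0.05 ± 0.07. The list mean was 5.02 to 5.39 in the high and 4.67 to 5.66 in the low arrays. The 9 genes of fenestrated endothelium had a median of 0.04. Plvap, the diaphragm protein of the leaky capillaries of the plexus, ran from 5.55 to 6.01 in the high and from 5.49 to 6.07 in the low arrays (difference 0.04 ± 0.08). The 14 genes of blood-brain barrier endothelium and pericytes had a median of -0.08. Slco1c1, a thyroxine transporter that the choroid epithelium also expresses, stood above the rest of that list at 0.65 ± 0.09.

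Immune markers differed little. Median differences were -0.00 for 13 genes of homeostatic microglia, 0.00 for 10 border macrophage genes, -0.04 for 11 genes of other leukocytes and -0.02 for 17 genes of microglia around plaques. No member of the 4 lists was counted, which says little, as only 0.273% of all genes were. Mrc1, the mannose receptor of border macrophages, differed by 0.19 ± 0.08. Cst7 differed by -0.50 ± 0.61 with all arrays and by 0.43 without mice 4 and 7. The medians of the 4 lists were not taken without the arrays of these mice.

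Markers of the hippocampus and its surroundings were used to read how the dissections differed. The 15 genes of hippocampal fields had a median difference of 0.14, and its largest differences were in the dentate granule cell markers Dsp (1.02 ± 0.30), Lct (0.72 ± 0.32), C1ql2 (0.64 ± 0.28) and Prox1 (0.58 ± 0.20). Mouse 4 was the lowest low array for Prox1, and without it these differences were 0.82, 0.52, 0.44 and 0.47. The 14 thalamus and habenula genes had a median of -0.06 and the 10 striatum and septum genes -0.01. In the latter list Ppp1r1b, the dopamine-regulated phosphatase inhibitor, ran from 5.32 to 6.11 in the low and from 6.15 to 6.79 in the high arrays (0.70 ± 0.09), without overlap. Excitatory neurons (-0.05), interneurons (-0.10), astrocytes (-0.07) and oligodendrocytes (0.10) had small list medians. The quartiles of all genes were -0.07 and 0.04. The interneuron and oligodendrocyte medians lay outside them, and the astrocyte median lay at the lower one. The immediate early genes, which neurons switch on with activity, had a median of -0.24, with Fos at -0.58 ± 0.24.

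Below the threshold of 1 log2 unit, 29 more genes were higher without overlap, which makes 76 at any size (0.441% of all genes), and 2 were lower (0.0116%). The 2 were 3110039M20Rik (-0.33 ± 0.05) and Kcnma1 (-0.17 ± 0.04), the latter a calcium-activated potassium channel of neurons. A further 19 genes differed by at least 1 unit with overlap, led by Slc13a4, Igfbp2 and Igf2.

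**Figure D3:**
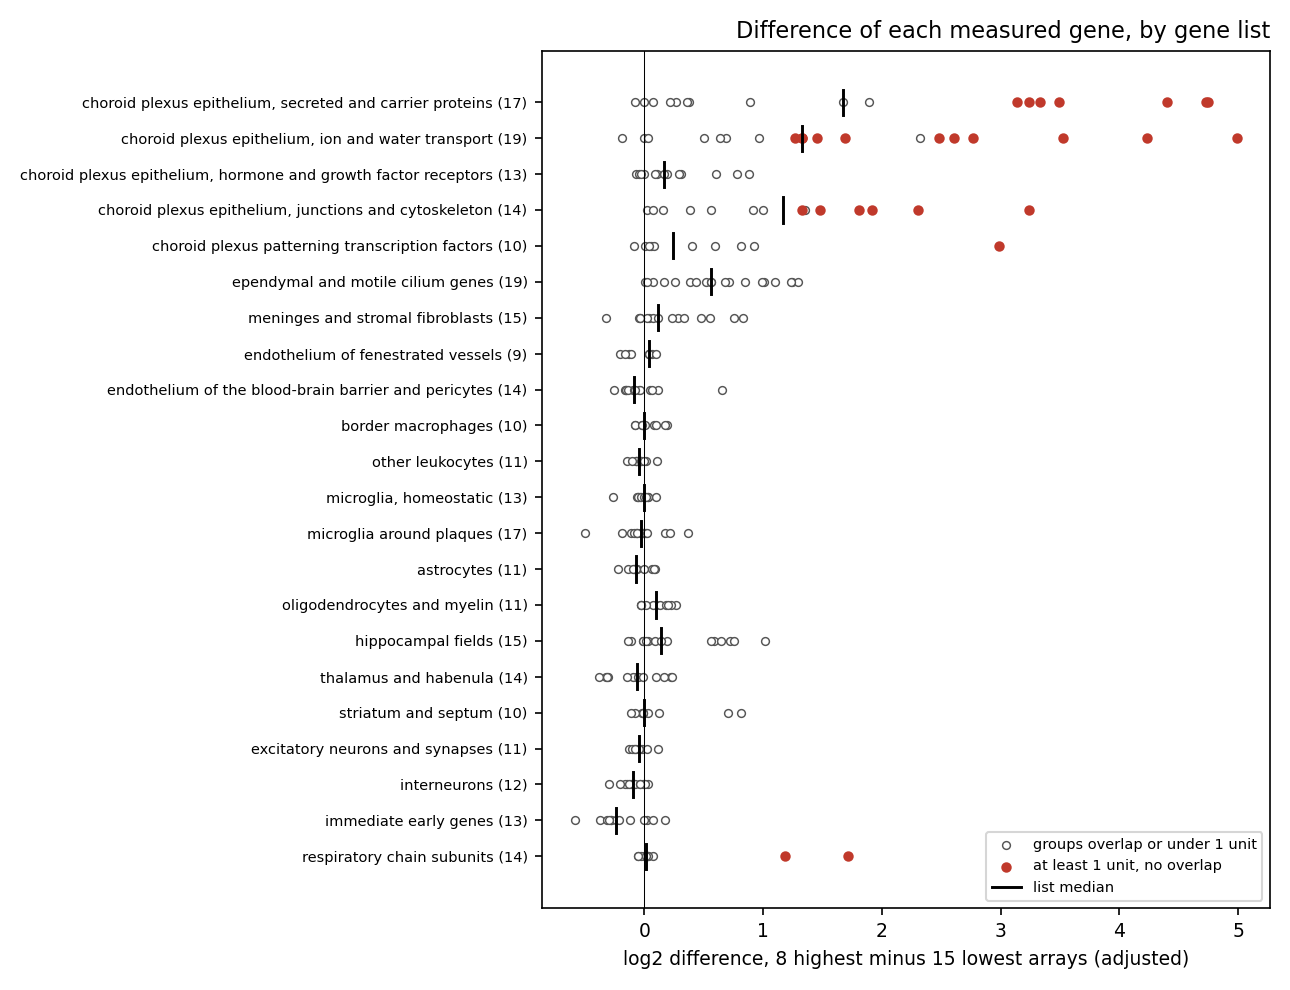
Difference of the 8 highest minus the 15 lowest hippocampus arrays (log2, adjusted for genotype and cohort) for each measured gene of the 22 lists, with the number measured in brackets. Red points are genes at least 1 unit apart without overlap, and bars are list medians, from -0.24 for immediate early genes to 1.67 for secreted and carrier proteins.

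The 8 high arrays were not alike. The array of mouse 7 had the highest value of the 8 for 31 of the 47 genes, and that of mouse 5 had the lowest for 39, with mouse 53 the lowest for 7. The median over the 47 genes was 6.91 in mouse 7 and 5.54 in mouse 5. Sulf1 in mouse 5 was 5.16, and the next of the 8 was 6.37. The arrays between the groups shared only part of the pattern. Their median lay between the low and the high median for 44 of the 47 genes, all but Car12, Tmem72 and Cox6b2. Their highest value stayed below the lowest high array for 46, the exception being Slc16a8. In mouse 39, 17 of the 47 genes were above every low array, in mouse 6 it was 15, and in the other 5 arrays it was 4 to 9.

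The frontal cortex of the same mice, which the ranking did not use, was tested next. With 7 mice of the high and 14 of the low group, limma called 0 of 17216 genes (0%, Benjamini-Hochberg adjusted p under 0.05), 0 of the 47 among them, and 623 genes had an unadjusted p under 0.05, 1 of the 47 among them. The differences of the 47 had a median of -0.00 and ran from -0.10 to 0.54, 23 of them positive. The largest was that of Ttr, at 0.54 ± 0.78, and without Ttr no difference exceeded 0.17 in size. Kcnj13 differed by 0.01 ± 0.17, Kl by -0.06 ± 0.08 and Folr1 by -0.07 ± 0.07 in the cortex. In simulated cortex data a difference of 1 log2 unit was found for 100% of changed genes and one of 0.5 for 88%. The changed genes were drawn at random, so these shares do not hold for Ttr, with its SE of 0.78. Ttr varied widely in the cortex, from 3.30 to 9.70, whereas Folr1 (2.89 to 3.46) and Kl (2.72 to 3.51) did not.

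**Figure D4:**
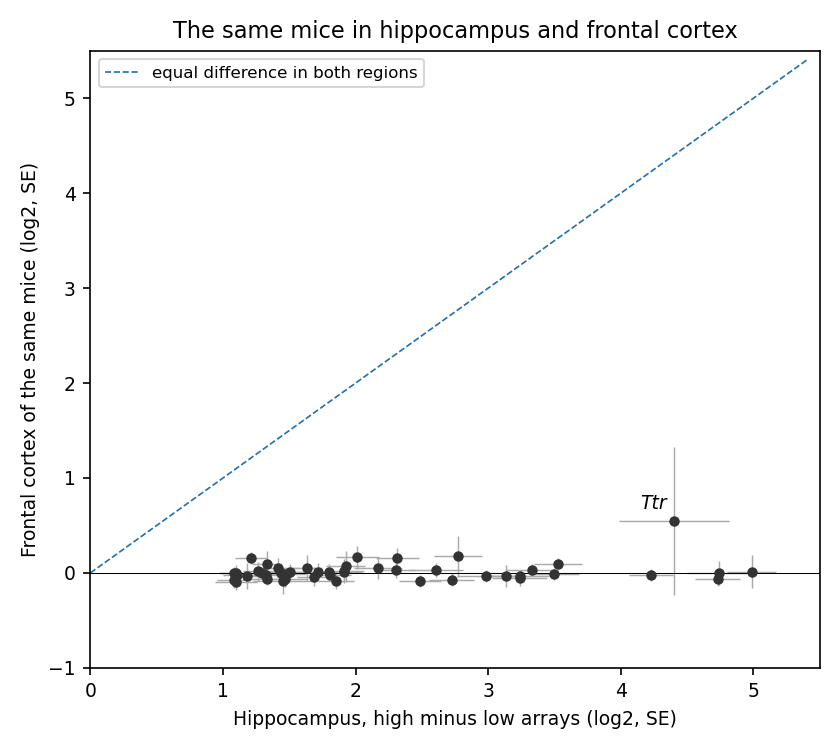
Each point is 1 of the 47 genes, with its high minus low difference in the hippocampus arrays on the horizontal axis and the difference between the same mice in the frontal cortex on the vertical axis (log2, bars are SE). Cortex differences ran from -0.10 to 0.54, the largest for Ttr, far below the dashed line of equal differences.

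The hippocampus was then set against the frontal cortex. The 47 genes were chosen by the high and the low hippocampus arrays, so neither this fit nor the one without the 8 high arrays is independent of the choice. The low arrays stay in the latter, which leans towards low hippocampus values. Both are given as a description, with no p for a member. Without the 8 high arrays limma called 24.6% of all genes higher and 24.2% lower in the hippocampus, and 27 of the 47 were higher and 7 lower. The hippocampus minus cortex difference was 1.68 ± 0.10 for Kl, 1.34 ± 0.11 for Car12, 1.12 ± 0.13 for Calml4 and 0.39 ± 0.07 for Folr1. For Ttr, whose 8 highest values were cut off by their own rank, it was 3.43 ± 0.48. Kcnj13, the gene of largest difference between the array groups, differed by 0.18 ± 0.13. Cdkn1c (-1.07 ± 0.10), Sulf1 (-0.79 ± 0.08), Steap2, Pcolce, Mdfic, Abca4 and Col8a1 were lower in the hippocampus. With the mouse as a block 6 of these 7 were still called, all but Pcolce.

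The low arrays can be placed against the cortex in the same way, as a description. Their median was above every cortex array for 7 of the 47 genes (Clic6, Sostdc1, Kl, Calml4, Car12, Pcolce2 and Slc29a4), within the cortex range for 38 and below it for Cdkn1c and Steap2. The lowest high array was above every cortex array for 41. With all arrays in the fit, 39 of the 47 were higher in the hippocampus and Cdkn1c was lower, where 26.7% and 28.5% of all genes were, 55.2% in either direction.

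The study compares TG with WT mice, and the spread of the 8 arrays over its groups was counted. Of 15 TG arrays 6 were high, and of 15 WT arrays 2 (Fisher's exact test, two-sided, p = 0.215). Among the male mice 5 of 8 TG and 1 of 8 WT arrays were high (p = 0.119, exact test), and among the female mice 1 of 7 and 1 of 7. By cohort, 6 of 16 male and 2 of 14 female arrays were high (p = 0.226, exact test). No split passed 0.05, which does not show that the arrays were evenly spread. Taking 7 or 9 high arrays gave 0.0801 and 0.427 for genotype and 0.0860 and 0.118 for cohort, and leaving out mouse 7 gave 0.215 and 0.0927 (exact tests).

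**Figure D5:**
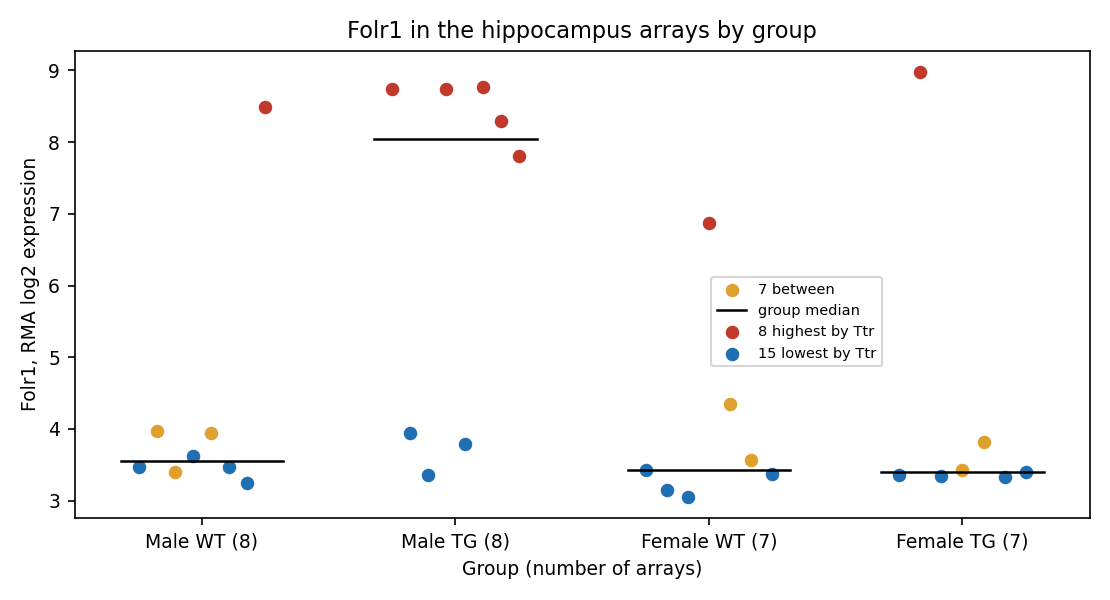
Log2 expression of Folr1 in the 30 hippocampus arrays by group, coloured by the Ttr class of the array, with bars for group medians. In the male TG group 5 of 8 arrays lie at 7.81 or more, and in each other group 1 array lies at 6.87 or more.

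TG against WT was fitted with the cohort over all 30 hippocampus arrays. limma called 1133 genes (6.58% of all), 679 higher (3.94%) and 454 lower (2.64%), and 0 of the 47. With arrays set to equal medians 1763 were called, 576 higher and 1187 lower, and again 0 of the 47. All 47 estimates were positive, with a median of 0.67 and a range of 0.31 to 1.52, and 35 had an unadjusted p under 0.05, as had 3454 (20.1%) of all genes. The 47 were chosen as higher in the 8 high arrays, of which 6 were TG and 2 WT, and they rise together there. Their shared sign and the count of 35 therefore go with that split of arrays and are not separate results. The fit without the 8 high arrays is not independent of the choice either. The smallest adjusted p was 0.0887. Folr1 was higher in TG by 1.45 ± 0.69 (adjusted p = 0.233), Ttr by 1.21 ± 0.72 (adjusted p = 0.374) and Kl by 0.97 ± 0.48 (adjusted p = 0.258). Without the 8 high arrays, the same fit gave the 47 genes a median of 0.04, a range of -0.17 to 0.38 and 31 positive values. Of the 47, 3 had an unadjusted p under 0.05, as had 2706 (15.7%) of all genes. It called 459 genes (2.67%), 1.89% of all genes higher and 0.773% lower, 0 of the 47 among them, and 426 of the 459 were also called with all arrays. This fit had 6 TG and 2 WT arrays fewer, and a smaller fit calls fewer genes. How much of the fall in calls came from that was not tested. Folr1 was then at 0.02 ± 0.13, Kl at 0.04 ± 0.21 and Ttr at 0.22 ± 0.67. Without the arrays of mice 4 and 7 alone, the median of the 47 genes was 0.55 and 0 were called.

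The call on the 47 genes depended on single arrays. Here too the 47 share their choice by the 8 high arrays, so the genes that passed are not separate results. Without mouse 52, the WT male with a high array, 5 genes passed the threshold (Gm19935, Cdkn1c, Mdfic, Spint2 and Sulf1), as did 7.31% of all genes. Without mouse 41, 2 passed (Cdkn1c and Mdfic), with 7.20% of all genes. Without mouse 43 or mouse 5, 1 passed (Mdfic and Gm19935), with 6.46% and 6.99% of all genes. Of the 67 measured choroid and ependymal list genes outside the 47, 5 passed with all 30 arrays (7.46%, against 6.58% of all genes). Ltc4s rose by 0.91 (adjusted p = 0.000147), Cfap126 by 0.78 (adjusted p = 0.0234), Rarres2, the chemoattractant chemerin, by 0.57 (adjusted p = 0.00567) and Clu by 0.22 (adjusted p = 0.0144), and Atp1b1 fell by 0.11 (adjusted p = 0.0357). Without the 8 high arrays, in a fit with fewer arrays, Ltc4s and Rarres2 passed, and Clu, Atp1b1 and Cfap126 did not.

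The cohorts differed in 1433 genes (8.32% of all), 674 higher (3.91%) and 759 lower (4.41%) in the female mice 1 to 14. Setting all arrays to 1 median moved this to 901 higher and 442 lower. Of the 47 genes 1 passed, Car12, which was lower in the female mice by 0.88 (adjusted p = 0.0364). It was lost without any 1 of mice 1, 3, 4, 9, 11, 14, 44, 46, 50, 51 or 52, and without the 8 high arrays Spint2, a protease inhibitor, passed in its place. All 47 estimates were negative, from -1.34 to -0.08, with a median of -0.54. The 47 were chosen as higher in the 8 high arrays, 6 of them male and 2 female. The shared sign goes with that split and is not a separate result for each gene. How much of each estimate came from the split was not tested. Spint2 also passed with the Ttr class as a covariate. No gene was called for a genotype effect that differed between the cohorts (0 called, 0%, with 842 at an unadjusted p under 0.05). For the 47 genes the interaction had a median of -0.71 and a range of -2.22 to -0.30, all negative, with 0 at an unadjusted p under 0.05 and a smallest adjusted p of 0.989. That sign too goes with the choice of the genes, as 5 of the high arrays were male TG and each other group had 1. It is not a separate result for each gene.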

How the data were processed

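The deposited log2 expression values, 1 per probe set, are the authors' RMA output (R 3.2.2), as the submitters' processing notes say. RMA quantile-normalizes arrays and makes no detection call, and no dim gene was left out. The sources used here do not give the chip definition. Of 17856 probe sets, 17216 carried a gene symbol and were tested; 640 did not.

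Values were used as deposited, with limma 3.58.1 (R 4.3.3; data.table, version 1.17.8). Hippocampus fits had genotype and cohort as terms, and the region fit 8 group means. All tests were two-sided. Adjusted p-values are Benjamini-Hochberg values over 17216 genes, read at 0.05. The fits were tested on simulated data. The arrays, the genes and the 22 lists were chosen with earlier results of these data known. Named genes were Ttr, Kl, Folr1, the 30 largest differences, members of the lists and the genes of smallest p; genes named beyond these were chosen after their values were seen.

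Both regions were taken from each mouse, per the labels' protocols, so the mouse numbers pair 28 mice. The deviations of a mouse's arrays from their group means correlated from -0.033 to 0.363 (median 0.111, over 0.1 in 15 of 28). Replicates are separate mice. Promoter windows came from RefSeq. Alternatives covered scaling, the prior, array weights, bright genes, covariates, other rankings, the block and leaving out arrays. Fits without mouse 7 for the exact tests and the block without the 8 high arrays were added after seeing the data.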

Additional observations from a re-analysis of the deposited data

Results flagged for a closer look

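In 7 of 62 groups of arrays examined, the highest or lowest array lay farther from its neighbour than Dixon's limit for that number of arrays allows. Chance flags about 1 in 20 groups, and several of these flags come from the same arrays, which the ranking by Ttr had already picked.

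In the male WT hippocampus, mouse 52 had a Kl value of 8.09, with the next array at 5.27, and a Folr1 value of 8.49, with the next at 3.98. In the female TG hippocampus, mouse 7 had a Kl value of 8.54, with the next at 5.38, and a Folr1 value of 8.98, with the next at 3.81. In the female WT hippocampus, mouse 5 had a Folr1 value of 6.87, with the next at 4.35. Within the 8 high arrays, mouse 5 had a Ttr value of 13.10, with the next at 13.41, and a Sulf1 value of 5.16, with the next at 6.37. The ranking by Ttr made that group, so these 2 values are a description and test nothing. The male TG group, in which 5 of 8 arrays were high, had no such array for these genes.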

How the results depend on the processing

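The count of 47 higher genes was 45 to 68 under other covariates, rankings, subsets of arrays, scalings and thresholds, apart from the brighter part of the genes. That part holds the genes whose mean value was at or above the median of all gene means. Only 11 of the 47 were in it, so the mean value of most of the 47 lay below that median. This does not make them dim in the 8 high arrays. There the median over the 47 genes ran from 5.54 (mouse 5) to 6.91 (mouse 7), above the array medians of 4.79 to 4.84. The count was 45 to 60 with each array left out. The count of lower genes was 0 except for 2 within mice 1-14 and 2 within WT arrays (0 to 0 with each array left out). For TG against WT, 459 genes were called without the 8 high arrays, 753 with the Ttr class as a covariate and 1763 with equal array medians, and array weights called 2 of the 47 (Gm19935 and Calml4). Leaving out each array gave 903 to 1354 genes and 0 to 5 of the 47. For the cohorts, 672 genes were called without the 8 high arrays, and of the 47, 0 with a trended robust prior, 2 with array weights and 3 without mice 4 and 7. Leaving out each array gave 1087 to 1687 genes and 0 to 3 of the 47, with 2 without mouse 5, 41 or 45 and 3 without mouse 7. The cohort difference of Ttr turned to 0.042 without the 8 high arrays. The interaction called 1 gene (Klf16) with the Ttr class as a covariate and 0 to 0 with each array left out. Its estimate turned to 0.76 for Ttr without the high arrays and to 0.012 for Folr1 with the class as a covariate. The cause was not tested. The cortex of the same mice gave 0 to 0 calls. With the mouse as a replicate block, 9548 genes differed between the regions, against 9502 without it, and 40 of the 47 in either. Without the 8 high arrays the block gave 8367 and 33, against 8415 and 34.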
